A study of Xenopus laevis with 40 samples.

Results

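Explants of Xenopus laevis epidermis in which Notch signalling had been raised were compared with untreated explants at stage 25, when the multiciliated, ion-transporting and mucus-secreting cells of this tissue are differentiating. The 4 libraries were chosen by their labels from a series of 40: st25-nicd and st25-ctrl, each from experiment 1 and experiment 2. All were wild type. The nicd group had received mRNA of the Notch intracellular domain at 120 ng/ul, given in 4 injections to the animal side of the 4-cell embryo. The ctrl group was not injected, so it controls for neither the injection nor the load of foreign mRNA. In both groups the cap of ectoderm was cut at stage 8 and cultured to stage 25, and each experiment came from its own female and fertilization. The whole series covers 5 treatments (uninjected, suh-dbm, suh-dbm with dnmcidas, nicd and a foxa1 morpholino) at 4 stages, with 2 libraries per group.

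Notch is a receptor that is cut when a neighbouring cell presents a Delta or Jagged ligand, and its freed intracellular domain then joins the DNA-binding protein Rbpj, called Su(H) in frogs, to switch on genes of the Hes and Hey families. In the frog epidermis this signal passes between cells of the inner layer and sets how many of them become multiciliated cells or ionocytes. The multiciliated cell programme runs through the Geminin-like proteins Gmnc and Mcidas to Foxj1 and the motile cilium genes, and the ionocyte programme runs through Foxi1 to the proton pump and its partner transporters. Goblet cells form in the outer layer, basal cells lie beneath, and small secretory cells join the surface later. In bulk RNA, fewer cells of a type and less RNA per cell cannot be told apart.

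The deposited counts came to 64782964 and 43827797 in the uninjected libraries (experiment 1, then experiment 2, as in all pairs of values here) and to 33938847 and 39942875 in the nicd libraries, against 20177357 to 99359750 over the series. The transcript notch1.S, which matches the injected domain, stood at 36.4 and 49.5 CPM (the usual scaling of a count to the total of its library) in the uninjected and at 424 and 792 CPM in the nicd libraries, in keeping with their labels. A read of injected mRNA looks the same as a read of the cell's own, so notch1.S is left out of every count below. As for the tissue label, the epidermal keratins krt5.7.L and krt12.S were between 6064 and 18995 CPM in all 4 libraries, while the neural list, read further below, summed to 102 and 146 CPM uninjected and 493 and 537 CPM with nicd, with 9 of its 44 copies at 0 in all 4 libraries, neurog1.L and neurod1.L among them. Many genes differed between the experiments, and 1 did so in an unusual way. The centrin gene cetn4.L read 156 and 134 CPM in the uninjected but 6452 and 2.95 CPM in the nicd libraries. Over the series it was at 1297 to 19938 CPM in the 16 injected libraries of experiment 1, and at 2.40 to 149 CPM in the 16 of experiment 2, and the labels name no centrin mRNA.

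Between nicd and uninjected explants 3893 of 31647 genes tested differed, 12.3% of them, at an adjusted p under 0.05 in edgeR's quasi-likelihood test. Of these, 1647 rose (5.20%) and 2246 fell (7.10%). In all but 1 of the calls (3892 of 3893) both experiments moved the same way. The calls were made on these same libraries, which favours such agreement, so it is no separate check. Experiment 1 gave the larger change for 1273 of the 1647 genes that rose, with a median log2 ratio of 1.52 against 1.20 in experiment 2. It also did so for 1555 of the 2246 that fell, with medians of -3.07 and -2.70. Of the 2 nicd libraries at stage 25, that of experiment 1 had the lower level of notch1.S. At stage 16 the order was the reverse, with 6573 and 2104 CPM in the nicd libraries, and at stage 32 they held 94.9 and 379 CPM. Whether the amount of injected mRNA bears on the size of the response was not tested. The paired fit with a replicate block within each stage, added after the data were seen, called 8664 genes, 4272 higher (13.5%) and 4392 lower (13.9%), and held all 3893 calls in the same direction. Without the nicd library of experiment 1 the calls dropped to 1546, and without the uninjected library of experiment 1 or experiment 2 they were 2299 and 1947. Below, "called" refers to the fit without a block and "with the block" to that paired fit. The sign ± gives a standard error of a log2 fold change, worked back from that change and the F statistic of its test. Lists of genes are read against the 5.20% and 7.10% of all genes and their median log2 fold change of 0. List counts with the block have a higher background, the 13.5% higher and 13.9% lower of that fit. A list count near those shares is no more than all genes gave.

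**Figure D1:**
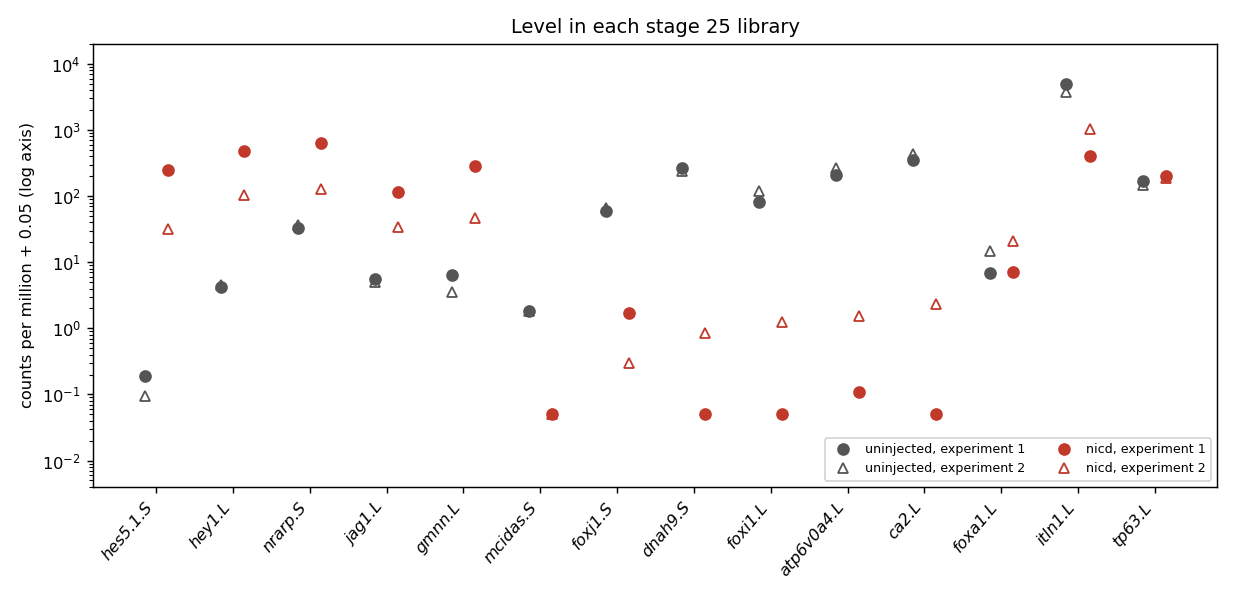
Levels of 14 genes in the 4 stage 25 libraries, as CPM plus 0.05 on a log axis; grey marks are uninjected and red marks nicd libraries, filled circles experiment 1 and open triangles experiment 2. The Notch targets hes5.1.S, hey1.L and nrarp.S lie above the uninjected libraries in both nicd libraries, the cilium genes foxj1.S and dnah9.S and the ionocyte genes foxi1.L, atp6v0a4.L and ca2.L lie far below, and foxa1.L overlaps.

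Genes that Notch is known to switch on rose together. Of 32 copies of Hes, Hey, Nrarp and related feedback genes tested, 22 rose and 1 fell, with a median log2 fold change of 5.86, or 5.56 with the copies at 0 in a group put at their bound (leaving out each library in turn, 16 to 21 rose). hes5.1.S, a transcriptional repressor that is the textbook readout of Notch, was at 0.139 and 0.0456 CPM in the uninjected and 247 and 31.3 CPM in the nicd libraries. The groups were far apart, and the nicd library of experiment 1 was the highest (log2 fold change 10.44 ± 1.30, adjusted p = 5.43e-06). Its partner copy hes5.1.L had 2 counts in the uninjected against 5592 in the nicd libraries, a ratio of 4110 with an exact 95% interval of 1137 to 33948 for counting error. hes5.2.L had no count in either uninjected library and was at least 353-fold higher with nicd, taking 3 counts over the group as the floor.

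hey1.L, a repressor of the same class, stood at 4.23 and 4.47 CPM against 486 and 103 CPM. It did not overlap between groups (6.11 ± 0.78, adjusted p = 4.66e-06), and hey1.S behaved alike, at 9.03 and 8.08 CPM against 562 and 129.7 CPM (5.36 ± 0.71, adjusted p = 8.47e-06). nrarp.S, a feedback inhibitor that binds the Notch complex itself, was already present at 33.4 and 36.0 CPM and reached 639 and 129 CPM (3.50 ± 0.54, adjusted p = 5.72e-05). For all of these the nicd library of experiment 1 lay several times above that of experiment 2, and the 32 copies summed gave 124 and 108 CPM uninjected against 2672 and 609 CPM with nicd.

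The family was not uniform. hes4.L, a repressor that the tissue expresses without injected Notch, was at 43.5 and 41.1 CPM against 97.5 and 102 CPM, a smaller rise (1.24 ± 0.35, adjusted p = 0.0177) whose adjusted p ranged from 0.0573 to 0.168 when each of the 4 libraries was left out in turn. Both hes1 copies lay lower in each nicd library without being called (hes1.L at 4.6 and 3.76 against 1.03 and 1.6 CPM, log2 fold change -1.67, adjusted p = 0.158). The Fringe copy lfng.L, which encodes a sugar transferase that tunes how Notch reads its ligands, fell from 2.61 and 1.69 to 0.943 and 0.501 CPM (-1.58 ± 0.46, adjusted p = 0.023). That call was lost without the uninjected library of experiment 1 (adjusted p = 0.219) or the nicd library of experiment 2 (0.202), and lfng.S read 3.92 and 2.19 against 3.71 and 2.05 CPM.

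**Figure D2:**
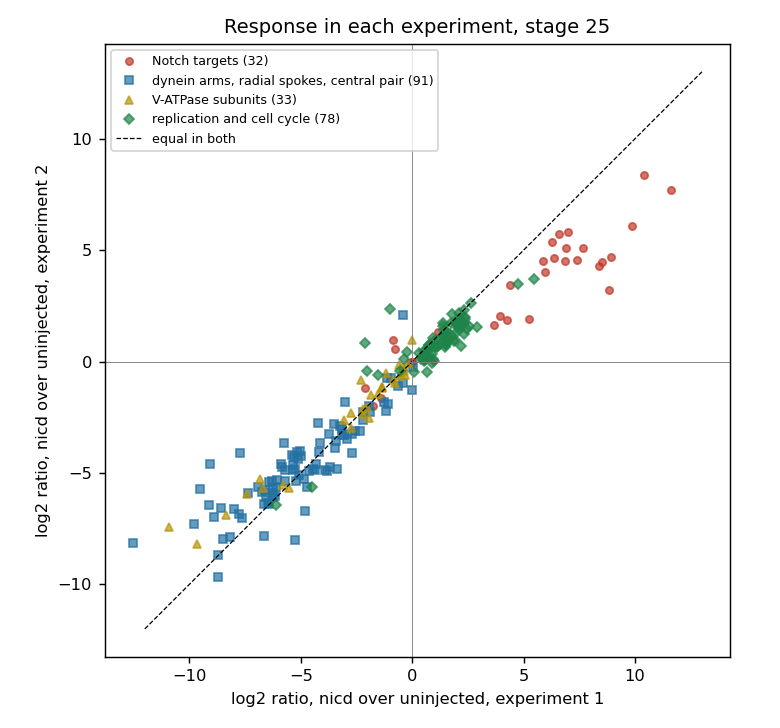
Log2 ratio of nicd to uninjected in experiment 1 (x axis) against experiment 2 (y axis) for the 32 Notch target copies, 91 axonemal dynein and radial spoke copies, 33 V-ATPase copies and 78 replication and cell cycle copies; the dashed line marks equal ratios. Most Notch targets lie below the line at positive ratios (list medians 5.92 and 3.73), and most axoneme copies lie at negative ratios in both experiments.

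Among 42 tested copies of ligands, receptors and the enzymes that process them, 6 rose and 4 fell, with a median of 0.26. The ligand gene jag1.L went from 5.50 and 5.02 CPM to 116 and 34.2 CPM, with no overlap (3.86 ± 0.62, adjusted p = 7.84e-05). Both copies of the receptor gene notch3 rose, notch3.S from 5.36 and 6.53 to 80.7 and 34.5 CPM (3.30 ± 0.42, adjusted p = 4.19e-06) and notch3.L from 15.5 and 24.3 to 98.0 and 75.2 CPM (2.14 ± 0.36, adjusted p = 0.000175). These are endogenous genes, not the injected mRNA. The ubiquitin ligase gene mib2.S, whose product promotes uptake of Notch ligands, fell from 3.24 and 5.25 to 0.118 and 0.401 CPM (-3.99 ± 0.56, adjusted p = 1.46e-05), and mib2.L fell by 1.39 on the log2 scale (adjusted p = 0.000341).

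dll1, the Delta ligand of this tissue, was not called: dll1.S read 19.0 and 29.2 CPM uninjected against 2.50 and 19.4 CPM with nicd. The nicd library of experiment 2 reached the uninjected range (log2 fold change -1.15 ± 0.78, adjusted p = 0.396), and without it the difference was called (adjusted p = 0.0401). rbpj.L, the DNA-binding partner, was at 10.8 and 13.2 against 18.1 and 13 CPM and did not separate the groups (adjusted p = 0.521). In this list the paired fit with a replicate block within each stage called 9 higher and 6 lower, and leaving out each library gave 3 to 4 higher and 2 to 3 lower.

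Among regulators of the multiciliated cell programme some fell and most were not called. Of 27 copies of fate regulators and ciliogenic transcription factors, 8 fell and 1 rose (median -1.89, and -0.18 with copies at 0 in a group put at their bound; 10 lower and 4 higher with the block). The numbers without each library in turn were 3 to 6 lower and 0 to 2 higher. mcidas.S, the coactivator that opens the programme, was low at this stage even in uninjected explants, at 1.78 and 1.76 CPM. It had no count in either nicd library, which puts it at least 43.5-fold lower (adjusted p = 0.00432, and 0.0614 without the nicd library of experiment 1). foxj1.S, the master regulator of motile cilia, was at 58.9 and 66.1 CPM in the uninjected and 1.68 and 0.25 CPM in the nicd libraries. The groups were far apart, and both copies fell (foxj1.S -6.01 ± 0.98, adjusted p = 0.000102; foxj1.L -5.98 ± 0.74, adjusted p = 3.31e-06). foxj1.2.L fell as well, from 12.1 and 11.1 to 0.147 and 0.0501 CPM (-6.87 ± 0.92, adjusted p = 8.5e-06). mcidas.L and ccno.S were also called lower, but both calls were lost whichever of the 4 libraries was left out. Their log2 fold changes were then -9.34 to -5.20 for mcidas.L and -3.79 to -2.03 for ccno.S.

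Many other regulators were not called. rfx2.L, which cooperates with Foxj1 on cilium genes, read 16.8 and 13.3 against 25.1 and 11.4 CPM (0.29 ± 0.39, adjusted p = 0.715), and foxn4.L read 6.67 and 8.69 against 6.19 and 8.44 CPM. In both cases the groups overlapped. gmnc.L had 16 counts in the uninjected and none in the nicd libraries (adjusted p = 0.169), too few to call. foxn4.S (adjusted p = 0.244) and ccno.L (0.191) were called lower only in the paired fit with a replicate block within each stage (adjusted p = 0.018 and 0.0325).

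Of 25 copies of genes for centriole amplification, which supplies the many basal bodies, 11 fell and none rose (median -0.71, and 3 higher with the block). The deepest falls were in ccdc78.S, a scaffold of the deuterosomes on which multiciliated cells build centrioles, from 35.2 and 42.8 to 0.118 and 0.15 CPM (-8.14 ± 0.82, adjusted p = 1.95e-07), and in deup1.L, the core deuterosome gene, from 9.54 and 13.6 to 0.0589 and 0.15 CPM (-6.71 ± 1.18, adjusted p = 0.000249). Both are next to absent in the nicd libraries. The centriolar satellite gene pcm1.L fell less, from 348 and 336 to 133 and 167 CPM (-1.19 ± 0.22, adjusted p = 0.00052). sass6.L, a cartwheel protein that every dividing cell uses, was at 18.8 and 19.1 against 31.1 and 25.2 CPM and was not called (adjusted p = 0.175). cetn4.L belongs to this list and sets its summed level, which was 903 and 915 CPM uninjected against 6832 and 369.7 CPM with nicd.

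**Figure D3:**
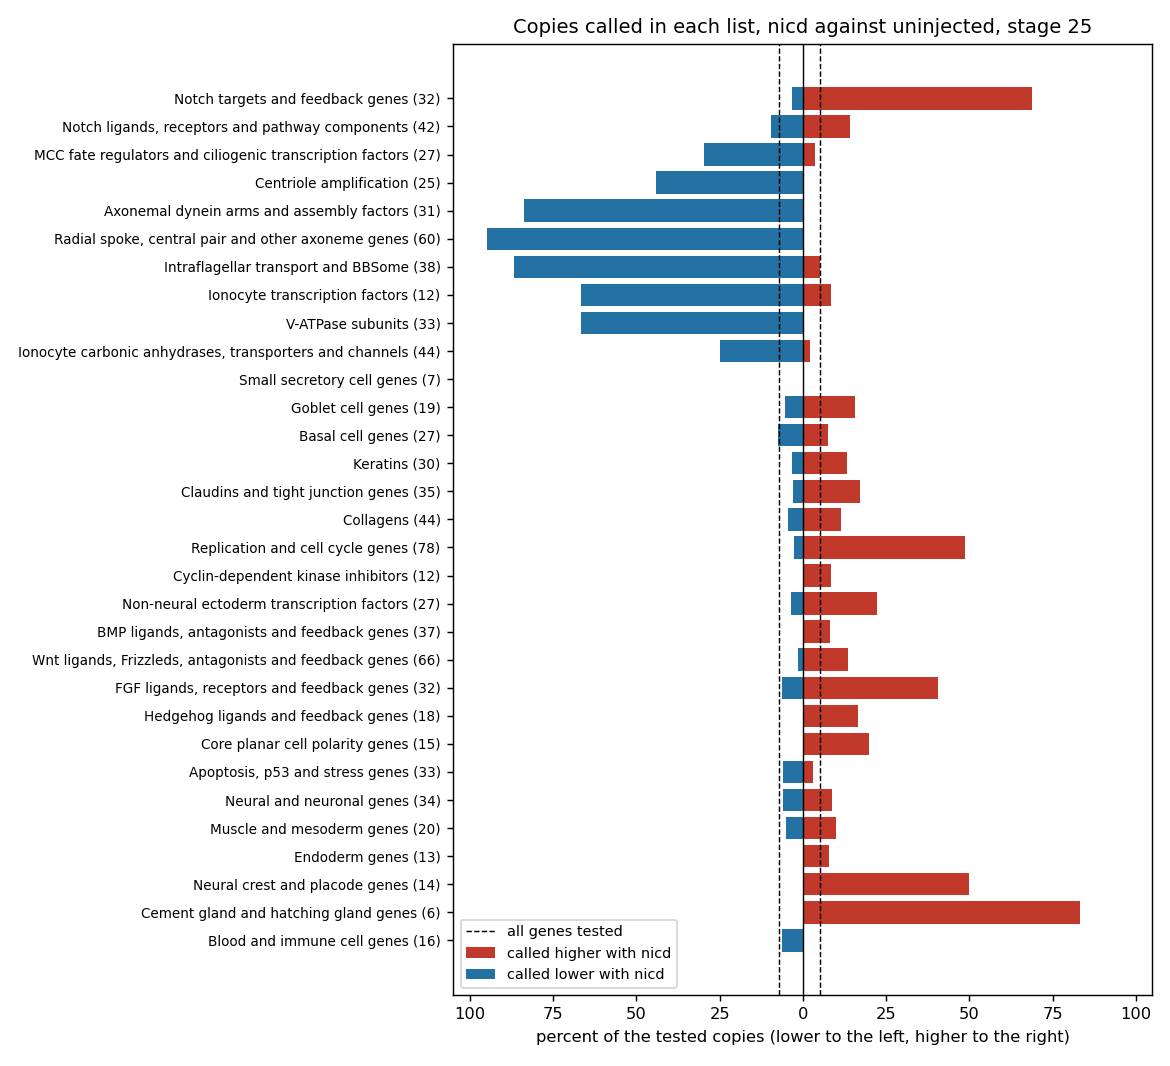
Percent of the tested copies of each list called higher (right) and lower (left) in nicd against uninjected explants at stage 25; dashed lines mark all genes tested, 5.20% higher and 7.10% lower. The axonemal, intraflagellar transport, V-ATPase and ionocyte regulator lists lie mostly on the lower side, and the Notch target and cement gland lists on the higher side.

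Structural genes of motile cilia fell nearly without exception. Of 31 copies of axonemal dyneins and the factors that assemble them, 26 fell and none rose (median -4.13), and of 60 copies of radial spoke, central pair and other axoneme genes, 57 fell and none rose (median -5.06). dnah9.S, an outer arm dynein heavy chain, was at 271 and 243 CPM uninjected and at 0 and 0.801 CPM with nicd (-9.28 ± 1.05, adjusted p = 9.33e-07). tekt2.S, a tektin of the doublet microtubules, went from 162 and 147 to 0.295 and 1.10 CPM (-7.77 ± 0.87, adjusted p = 8.87e-07), and tekt1.S from 4575 counts to 2, a ratio of 1556 (interval 431 to 12853). In each the uninjected libraries were close together and the nicd libraries at or near 0.

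Summed over the list, the radial spoke, central pair and other axoneme genes gave 3225 and 3213 CPM uninjected against 154 and 164 CPM, and the dyneins 1943 and 1774 against 156 and 148 CPM. The most abundant transcript of the axoneme list, tuba1a.S, an alpha tubulin, fell from 1696 and 1399 to 1.24 and 5.48 CPM (-8.86 ± 1.18, adjusted p = 8.12e-06). The 3 axoneme copies not called were iqca1.L, cfap36.L and iqcg.S, named because so few were left.

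Transport machinery that other cilia also use fell too. Of 38 intraflagellar transport and BBSome copies 33 fell and 2 rose (median -2.11). ift88.S, a core subunit of the transport trains, was at 68.7 CPM in both uninjected libraries and at 8.46 and 9.34 CPM with nicd (-2.94 ± 0.28, adjusted p = 1.08e-07). The deepest fall was in ttc26.L, another train subunit, from 50.3 and 47.3 to 1.12 and 1.20 CPM (-5.39 ± 0.46, adjusted p = 2.87e-08). Replicates of these genes differ by little, and the groups stand several-fold apart. The 2 copies that rose, bbs10.L (1.25 ± 0.41, adjusted p = 0.0463) and ttc21b.S (1.67 ± 0.53, adjusted p = 0.0393), each lost the call without the nicd library of experiment 1 (adjusted p = 0.309 and 0.515) and without the uninjected library of experiment 2 (0.436 and 0.348). bbs10.L also lost it without the nicd library of experiment 2 (0.0824), as ttc21b.S did without the uninjected library of experiment 1 (0.0801).

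Ionocyte regulators were low with nicd as well. Of 12 copies 8 fell and 1 rose (median -5.14). foxi1.L, the forkhead factor that specifies ionocytes, was at 80.8 and 119 CPM uninjected and at 0 and 1.20 CPM with nicd (-7.34 ± 1.46, adjusted p = 0.000957), and foxi1.S went from 53.8 and 78.4 to 0 and 0.651 CPM (-7.60 ± 1.29, adjusted p = 0.000194). dmrt2.L, a factor of the ionocyte programme, fell from 45.7 and 49.7 to 0.884 and 0.25 CPM (-6.39 ± 0.97, adjusted p = 4.18e-05), and the orphan receptor gene esrrg.S from 12.6 and 19.2 to 0 and 0.25 CPM (-6.88 ± 0.84, adjusted p = 2.77e-06). In all of them both nicd libraries lay at or below 1.20 CPM. The grainyhead-related gene tfcp2l1.L, in contrast, kept 44.1 and 78.5 CPM from 171 and 210.0 CPM (-1.63 ± 0.36, adjusted p = 0.00258). Without the nicd library of experiment 1 its log2 fold change was -1.33 and the call was lost. Its partner copy tfcp2l1.S read 148 and 210 against 67.2 and 160 CPM. There the groups overlapped, and it was called only with the block (-0.66 ± 0.51, adjusted p = 0.473, and 0.0412 with the block). The member that rose was foxi2.S, a related forkhead gene, from 0.0309 and 0.0456 to 3.59 and 2.50 CPM (6.26 ± 1.46, adjusted p = 0.00474, and 0.0804 and 0.0664 without the uninjected library of experiment 1 or 2).

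The vacuolar proton pump, which ionocytes place on their surface to acidify the outside, fell in 22 of 33 copies and rose in none (median -1.49). The subunits split by depth of fall. Those known from acid-secreting cells were nearly absent: atp6v0a4.L went from 205 and 266 to 0.0589 and 1.48 CPM (-8.23 ± 1.11, adjusted p = 9.14e-06), atp6v1c2.L from 270.5 and 329.6 to 0.766 and 2.75 CPM (-7.41 ± 0.69, adjusted p = 7.78e-08) and atp6v1b1.L from 718 and 749 to 6.19 and 19.4 CPM (-5.85 ± 0.84, adjusted p = 1.98e-05). The general subunit gene atp6v1e1.L fell from 505 and 556 only to 73.8 and 113 CPM (-2.51 ± 0.31, adjusted p = 3.89e-06), and atp6v1a.S from 51.1 and 54.0 to 29.4 and 27.8 CPM (-0.87 ± 0.20, adjusted p = 0.00322). atp6v1c1.L, the general counterpart of atp6v1c2, read 108 and 109.9 against 76.3 and 76.9 CPM and was not called (adjusted p = 0.0827, and 0.00241 in the paired fit with a replicate block within each stage).

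Of 44 tested copies of carbonic anhydrases, transporters and channels used by ionocytes, 11 fell and 1 rose (median -0.66). ca2.L, a carbonic anhydrase that supplies protons and bicarbonate, fell from 354 and 437 to 0 and 2.30 CPM (-8.41 ± 1.46, adjusted p = 0.000213), and ca12.L, a membrane-bound one, from 62.6 and 106 to 0.0589 and 1.68 CPM (-6.57 ± 1.16, adjusted p = 0.000272). The anion exchanger gene slc26a4.L, pendrin, fell from 136 and 288 to 0.0589 and 1.08 CPM (-8.50 ± 1.23, adjusted p = 4.14e-05). slc4a1.L, the band 3 anion exchanger, kept 8.43 and 16.7 of 120.3 and 118 CPM (-3.25 ± 0.38, adjusted p = 1.37e-06). The ammonium transporter gene rhcg.S had 289 counts in the uninjected and none in the nicd libraries, at least 65.5-fold lower.

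The transporter list holds genes of other cells as well. The sodium channel subunit scnn1a.L read 153 and 148 against 179 and 178 CPM and was not called (adjusted p = 0.632). Its partner scnn1b.S was at 159 and 121 against 35.0 and 35.1 CPM, not called without a block (adjusted p = 0.238) and called in the paired fit with a replicate block within each stage (adjusted p = 3.36e-05). In that fit 16 copies were lower and 5 higher. The copy that rose, slc12a2.L, a sodium, potassium and chloride cotransporter, went from 103 and 95.6 to 205 and 176 CPM (0.94 ± 0.27, adjusted p = 0.0229), a call lost without the nicd library of experiment 1 (0.274) and without the uninjected library of experiment 1 (0.0953) or experiment 2 (0.225).

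No gene of the small secretory cells, which release serotonin and arrive last, was called among 7 copies (median -1.27). All but the foxa1 copies lay lower in both nicd libraries. Of these tph1.S, ddc.L, slc18a1.L and slc18a2.L were at or below 0.913 CPM uninjected, where a difference is hard to call. foxa1.L, their forkhead factor, read 6.82 and 14.6 CPM against 7.07 and 20.6 CPM, and foxa1.S read 14.4 and 11.5 against 17.7 and 11.8 CPM. The groups overlapped for both (adjusted p = 0.833 and 0.935). The monoamine transporter gene slc18a1.S, which loads serotonin into vesicles, was lower in both nicd libraries, at 341 and 438 against 103 and 226 CPM, without passing the test (-1.25 ± 0.66, adjusted p = 0.252). At stage 16 it was called lower, at 210 and 209 against 3.26 and 28.7 CPM (-3.81 ± 0.73, adjusted p = 0.000817). The copy slc18a1.L was called lower there too (-5.73 ± 1.19, adjusted p = 0.00177). The difference of effects between stages 25 and 16 was called for neither copy.

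Goblet cell genes gave mixed results, with 3 of 19 copies higher and 1 lower (median -0.07, and 6 and 2 with the block). itln1.L, the intelectin lectin that goblet cells secrete, fell from 5043 and 3800 to 411 and 1049 CPM (-2.61 ± 0.61, adjusted p = 0.00432, but 0.135 without the nicd library of experiment 1). otog.L, the otogelin-like mucin and the most abundant gene of the list, read 14886 and 12152 against 4980 and 7422 CPM. Both nicd libraries were lower, and the difference was called only in the paired fit with a replicate block within each stage (adjusted p = 0.573, and 0.0311 with the block). The mucin gene muc2 rose from 0.448 and 0.365 to 25.9 and 46.0 CPM (6.44 ± 1.12, adjusted p = 0.000214). grhl3.S, a grainyhead factor of the outer layer, read 586 and 621 against 315 and 507 CPM and was not called (adjusted p = 0.341).

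The basal list gave 2 of 27 copies higher and 2 lower, 7.41% each way and near the shares of all genes (median 0.51, and 6 and 2 with the block). The higher itgb4.S lost its call without either uninjected library or the nicd library of experiment 1 (log2 fold changes then 5.07, 3.13 and 2.72). The lower fras1.S lost its call whichever library was left out (-2.54 to -2.31). tp63.L, the p63 gene that marks basal stem cells, read 170.0 and 147 CPM uninjected and 201 and 187 CPM with nicd, a difference smaller than its error (0.30 ± 0.86, adjusted p = 0.9). tp63.S overlapped between the groups. lama5.L, a laminin chain of the basement membrane, rose from 131 and 155 to 726 and 796 CPM (2.42 ± 0.54, adjusted p = 0.00285, and 0.0512 without the uninjected library of experiment 1). cav1.L, caveolin, fell from 114 and 98.3 to 9.02 and 13.8 CPM (-3.22 ± 0.79, adjusted p = 0.00697, and 0.129 without the nicd library of experiment 1).

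Keratins summed to 76425 and 71570 CPM uninjected and to 76763 and 77337 CPM with nicd. Of 30 tested copies 4 rose and 1 fell (median 0.13, and 6 and 3 with the block). The copies that rose were keratins of simple epithelia: krt19 went from 49.2 and 84.9 to 919 and 767 CPM (3.67 ± 0.63, adjusted p = 0.000184), krt18.L from 103 and 116 to 2041 and 2039 CPM (4.23 ± 1.04, adjusted p = 0.00684) and krt8.L from 961 and 1271 to 5813 and 5776 CPM (2.39 ± 0.54, adjusted p = 0.00314). The krt18.L call was lost without the uninjected library of experiment 1 (adjusted p = 0.0847) or experiment 2 (0.0887), and that of krt8.L without the former (0.0615). The copy that fell was krt8.2.S, a keratin 8 gene by its name, like krt8.L. Its call was lost without either library of experiment 1 (log2 fold change -0.95 without the uninjected and -1.18 without the nicd library). The abundant krt5.7.L read 18995 and 17018 against 17121 and 15858 CPM and was not called (adjusted p = 0.955).

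Of 35 claudin and tight junction copies, which seal epithelia, 6 rose and 1 fell (median 0.14, and 9 and 6 with the block). The 4 copies of cldn6 all rose, though cldn6.2.S lost its call without the nicd library of experiment 1 (adjusted p = 0.194) or the uninjected library of experiment 2 (0.063). Of the whole list, 3 copies were higher without either of these libraries and 4 without the uninjected library of experiment 1. cldn6.1.L rose from 4.69 and 9.79 to 111 and 56.8 CPM (3.57 ± 0.50, adjusted p = 1.63e-05) and cldn6.2.L from 53.4 and 54.5 to 451 and 216 CPM (2.65 ± 0.38, adjusted p = 2.33e-05). cldn34.L fell from 5.67 and 8.21 to 0 and 0.1 CPM (-6.96 ± 1.20, adjusted p = 0.000264). Of 44 collagen copies 5 rose and 2 fell (median 0.26, 8 and 6 with the block, and 1 to 3 higher without each library in turn), among them the basement membrane collagen col18a1.S, which rose from 24.3 and 37.0 to 124 and 151 CPM (2.18 ± 0.40, adjusted p = 0.000367). The gene of the glycoprotein fibronectin, in none of these lists, rose too: fn1.S went from 21.0 and 18.6 to 415 and 514 CPM (4.55 ± 0.50, adjusted p = 5.74e-07).

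Genes of DNA replication and the cell cycle were higher. Of 78 copies 38 rose and 2 fell (median 1.18). The count of copies that rose was 14 without the nicd library of experiment 1, 22 and 23 without the uninjected library of experiment 1 or experiment 2, 35 without the remaining library, and 51 in the paired fit with a replicate block within each stage. gmnn.L, geminin, which blocks re-licensing of replication origins, was among the copies that rose. It read 6.39 and 3.54 CPM uninjected against 283 and 46.0 CPM with nicd (5.07 ± 0.86, adjusted p = 0.000159), and gmnn.S rose as well (4.41 ± 0.58, adjusted p = 7.41e-06). mcm7.L, a subunit of the helicase that opens origins, rose from 57.4 and 43.4 to 189.7 and 145 CPM (1.74 ± 0.29, adjusted p = 0.000149). mcm2.L, mcm4.L and mcm5.L rose by 1.85, 1.87 and 2.03 on the log2 scale, and tyms.L, which makes thymidylate, by 2.14 (adjusted p = 5.26e-05).

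The mitotic kinase gene cdk1.L read 36.1 and 49.4 against 59.1 and 68.1 CPM (0.58 ± 0.35, adjusted p = 0.333), and the cyclin gene ccnb1.2.L 53 and 78.7 against 97.0 and 97.8 CPM (0.58 ± 0.37, adjusted p = 0.365). Both lay higher in each nicd library by less than the test could call. The 2 copies that fell were both of ccna1, a cyclin whose expression in frogs is known from early embryos and germ cells. ccna1.L was at 7.21 and 8.46 CPM against 0.0589 and 0.0501 CPM (-7.09 ± 1.08, adjusted p = 4.51e-05). Of 12 copies on the list of cyclin-dependent kinase inhibitors (median 0.46), 1 was called, and 2 with the block. The inhibitor gene cdknx.L, at 21.9 and 24.1 against 43.4 and 49.5 CPM, was called only with the block (1.02 ± 0.44, adjusted p = 0.139, and 0.00742 with the block). The call without a block was cdkn2aipnl.S, caught by its name alone (0.58 ± 0.19, adjusted p = 0.0453), which was lost without the nicd library of experiment 1 (0.506) and without the uninjected library of experiment 1 (0.268) or experiment 2 (0.175).

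Among 27 copies of transcription factors of non-neural ectoderm 6 rose and 1 fell (median 0.18, and 6 and 3 with the block). Without the uninjected library of experiment 1 there were 2 higher, and 3 without the uninjected library of experiment 2 or the nicd library of experiment 1. foxi4.1.L, a forkhead gene of early ectoderm, rose from 6.19 and 3.51 to 372 and 289 CPM (6.09 ± 0.91, adjusted p = 3.56e-05), and its relative foxi4.2.L from 2.90 and 2.92 to 85.3 and 55.1 CPM (4.6 ± 0.67, adjusted p = 2.78e-05). These rose while the ionocyte gene foxi1 of the same family fell. dlx3.S, a homeobox gene of the epidermis, read 413 and 444 against 484 and 478 CPM and was not called.

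Of 32 copies of FGF ligands, receptors and feedback genes 13 rose and 2 fell (median 1.40), the largest share of rises among the FGF, Wnt, Hedgehog, BMP and planar polarity lists. A copy that fell, fgfr1op.L, is caught by its name alone and lost its call without the nicd library of experiment 1 (adjusted p = 0.0972). The receptor gene fgfr1.S went from 10.8 and 9.45 to 115 and 84.2 CPM, with no overlap (3.30 ± 0.30, adjusted p = 7.28e-08), and fgfr1.L rose by 2.75 ± 0.47. The ligand gene fgf8.L was at 0.293 and 0.228 CPM uninjected and at 7.87 and 11.97 CPM with nicd (5.22 ± 0.95, adjusted p = 0.000432). Feedback inhibitors that FGF signalling induces rose beside them, including spred2.L (2.31 ± 0.36, adjusted p = 5.6e-05). Both copies of spry1, spry2 and dusp6 were among the 13, and all 6 lost the call without the uninjected library of experiment 2 (adjusted p = 0.0667 to 0.222). Without that library 4 copies were higher, and 6 without either library of experiment 1.

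The Wnt list gave 9 higher and 1 lower of 66 copies (median 0.72), and 20 higher and 6 lower in the paired fit with a replicate block within each stage. With a library left out it gave 3 higher without either library of experiment 1, 4 without the uninjected and 5 without the nicd library of experiment 2. The receptor gene fzd7.S rose from 0.71 and 0.958 to 20.1 and 11.3 CPM (4.26 ± 0.73, adjusted p = 0.000189), and notum.L, which encodes an enzyme that inactivates Wnt ligands, from 0.309 and 0.228 to 5.01 and 3.33 CPM (3.93 ± 0.80, adjusted p = 0.00116). Of 18 Hedgehog copies 3 rose and none fell (median 1.56). The BMP list gave 3 of 37 higher and none lower (median 0.37), and the planar polarity list 3 of 15 higher and none lower (median 0.13). bmp2.S, a BMP ligand, went from 1.497 and 1.41 to 16.2 and 6.11 CPM (2.95 ± 0.59, adjusted p = 0.00108, and 0.0712 without the nicd library of experiment 1). The other BMP calls were both copies of id3, and no called member of the Hedgehog, BMP and planar polarity lists kept its call through all 4 omissions of a library. With the block they gave 9, 7 and 4 higher and 1 lower each.

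Markers of tissues outside the mucociliary epidermis were read as well. Of 6 tested cement gland and hatching gland copies 5 rose and none fell (median 4.96), and their sum was 290 and 374 CPM uninjected against 2728 and 2765 CPM with nicd. Without the uninjected library of experiment 1 there were 2 higher, and 3 without that of experiment 2 or the nicd library of experiment 1. ag1.L, a secreted protein of the cement gland, the sticky organ at the tadpole's head, went from 10.4 and 13.7 to 533 and 635 CPM (5.61 ± 1.10, adjusted p = 0.00083). The homeobox gene pitx1.L, which marks that gland, went from 0.401 and 0.616 to 17.8 and 38.5 CPM (5.79 ± 1.04, adjusted p = 0.000345). All of the uninjected values are below the nicd values. agr2.S, which stands in this list and in the goblet list, rose from 116 and 163 to 1210 and 1020 CPM (3.01 ± 0.77, adjusted p = 0.00947), a call lost without the nicd library of experiment 1 (0.0615) and without the uninjected library of experiment 1 (0.116) or experiment 2 (0.0794).

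Of 14 neural crest and placode copies 7 rose and none fell (median 3.16, or 2.80 with copies at 0 in a group put at their bound), with sums of 33.1 and 35.2 CPM against 391.7 and 119 CPM. With the block 7 were higher and 1 lower. The lower copy was tfap2b.S, at 2.52 and 3.74 against 0.0589 and 1.15 CPM (-2.36 ± 0.86, adjusted p = 0.0768, and 0.0259 with the block). The count of copies that rose was 4 without the uninjected library of experiment 1 and 5 to 7 without any other. The placode gene eya1.S, which encodes a transcriptional coactivator, rose from 5.73 and 4.15 to 134 and 35.7 CPM (4.12 ± 0.78, adjusted p = 0.000548), and sox9.S from 1.10 and 1.19 to 61.6 and 20.7 CPM (5.19 ± 0.80, adjusted p = 5.03e-05). The crest gene snai2.L rose from 0.293 and 1.41 to 6.54 and 5.98 CPM (2.91 ± 0.83, adjusted p = 0.0205), a call lost without the nicd library of experiment 1 (0.107) or the uninjected library of experiment 1 (0.24), and snai2.S, at 13 and 15.8 against 5.6 and 13.8 CPM, was not called (adjusted p = 0.802). sox10.S stayed at or below 0.2 CPM in all 4 libraries, and foxd3.L was at 0 in all but the nicd library of experiment 1, where it read 0.0589 CPM. crabp2.L, a retinoic acid binding protein in none of the lists, went from 1.30 and 0.137 to 384 and 120.1 CPM (8.40 ± 1.38, adjusted p = 0.000111).

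The remaining marker lists moved in few members. Of 34 neural copies 3 rose and 2 fell, 10 and 4 with the block (median 1.00, or 0.58 at the bounds, 9 copies at 0 in all 4 libraries, summed 102 and 146 against 493 and 537 CPM), and of 20 muscle and mesoderm copies 2 rose and 1 fell, 6 and 1 with the block (median 1.75, or 1.52 at the bounds, 29.8 and 49.7 against 84.6 and 228 CPM). Of the muscle and mesoderm calls, the fall and 1 rise were each lost without some libraries. Of 13 endoderm copies 1 rose, with 2 higher and 3 lower with the block (median -1.65, or -1.21 at the bounds, 67.2 and 60.1 against 129.7 and 82.6 CPM), and foxa4.L was at 0 in all 4 libraries. The endoderm rise lost its call whichever library was left out. Most of the endoderm sums came from a2m.S, at 48.8 and 39.0 against 121 and 71.8 CPM, which was not called (adjusted p = 0.218). The gata4, gata5 and gata6 copies all lay lower in both nicd libraries, and none was called without a block. Of 16 blood and immune copies 1 fell, with 2 higher and 4 lower with the block (median -1.41, or -0.74 at the bounds, 47.3 and 78.7 against 58.5 and 78.4 CPM). The neural copies that rose were 1 without the nicd library of experiment 1 or the uninjected library of experiment 2, and 2 without the uninjected library of experiment 1. With all libraries, the neural genes that rose were ncam1.S, a cell adhesion gene (3.78 ± 0.71, adjusted p = 0.000536), and both copies of sox11. The sox11.S call was lost without the nicd library of experiment 1 (adjusted p = 0.243) and without the uninjected library of experiment 1 (0.104) or experiment 2 (0.131), and that of sox11.L without the nicd library of experiment 1 (0.0587) or the uninjected library of experiment 2 (0.0522). Of those that fell, the neuronal gene elavl4.L had 114 counts uninjected and none with nicd. Of 33 apoptosis, p53 and stress copies 1 rose and 2 fell (median -0.25, and 4 and 5 with the block). The part of other tissues, of the injection and of stress in the results above was not tested.

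The same contrast was made at stage 16, when cell fates are being set, and at stage 32. At stage 16, 858 genes were higher (2.71%) and 2285 lower (7.22%) with nicd than uninjected. At stage 32, 561 were higher (1.77%) and 1282 lower (4.05%). The test of the difference itself called 56 genes (0.177%) between stages 25 and 16, 25 with a higher and 31 with a lower effect at stage 25, and 1 gene (0.00316%) between stages 32 and 25. Unadjusted p fell under 0.05 for 2380 and 1664 genes. The stage 25 libraries enter both differences. The paired fit with a replicate block within each stage called 887 and 185, and the counts moved between 4 and 150, and between 0 and 35, when single libraries were left out.

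Some centriole genes differed between stages. cep152.L, a centriole duplication protein, was at 45.8 and 49.0 against 12.5 and 13.1 CPM at stage 16 (-1.94 ± 0.42, adjusted p = 0.00249), and at 6.34 and 6.94 against 13.7 and 9.66 CPM at stage 25. The order of the groups turned over, and the difference of effects was called (2.77 ± 0.58, adjusted p = 0.0451). cenpj.L, which sets centriole length, behaved alike, with a difference of 2.31 ± 0.44 (adjusted p = 0.0272). The uninjected libraries themselves held far less of these transcripts at stage 25 than at stage 16. mcidas.S in uninjected explants was at 243 and 152 CPM at stage 16, 1.78 and 1.76 CPM at stage 25 and 0.038 and 0.116 CPM at stage 32, and ccno.S, which acts in centriole amplification, was at 106 and 108, then 1.91 and 3.54, then 0.038 and 0.154 CPM.

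Other cilium genes had the larger effect at stage 25. ttc26.L fell by 2.55 on the log2 scale at stage 16 and by 5.39 at stage 25, a difference of -2.83 ± 0.55 (adjusted p = 0.0272). ak7.S, an adenylate kinase of the axoneme, was at 55.1 and 79.2 against 4.26 and 4.85 CPM at stage 16, and at 109.8 and 103 against 0.236 and 1.05 CPM at stage 25 (difference -3.43 ± 0.73, adjusted p = 0.0492). fn1.S, at 121 and 72.7 against 224 and 168 CPM, was not called at stage 16, rose at stage 25 and at stage 32 stood at 14.7 and 11.9 against 2637 and 518 CPM (difference of stage 25 from 16, 3.60 ± 0.62, adjusted p = 0.0171).

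**Figure D4:**
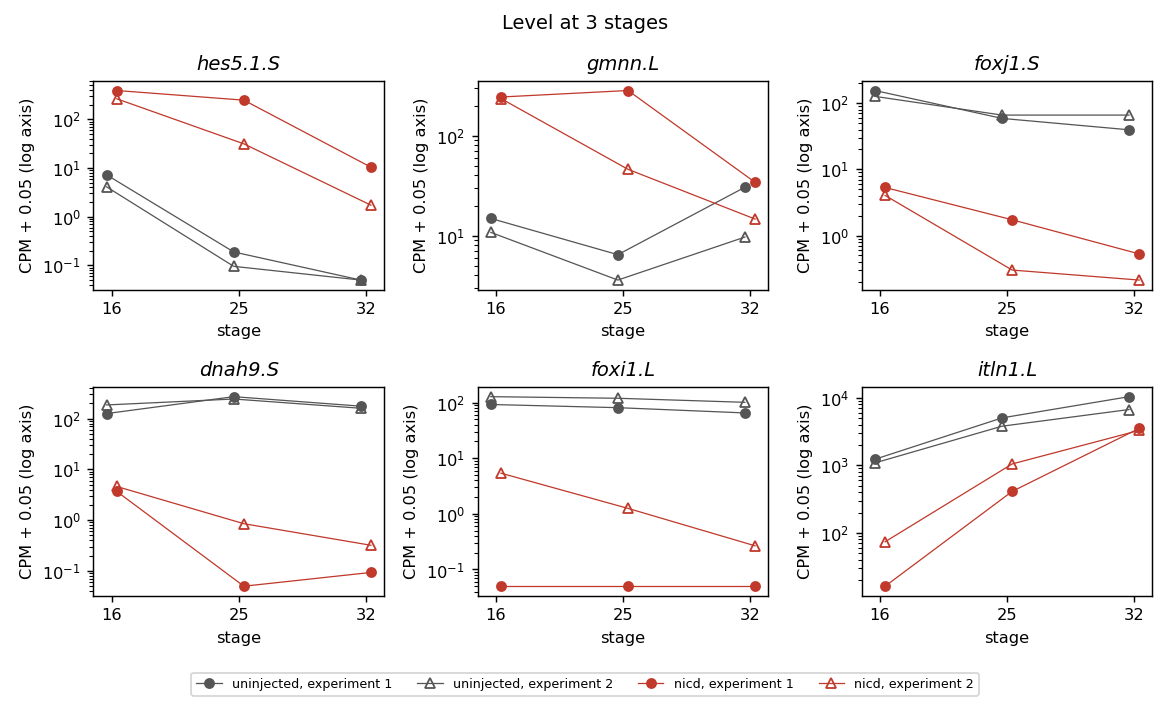
Levels of 6 genes at stages 16, 25 and 32 in uninjected (grey) and nicd (red) libraries, as CPM plus 0.05 on a log axis, filled circles experiment 1 and open triangles experiment 2. In the nicd libraries hes5.1.S drops from 390.1 and 263 CPM at stage 16 to 10.3 and 1.67 CPM at stage 32, and foxj1.S, dnah9.S and foxi1.L stay low at all 3 stages.

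Notch targets stood at different levels over the stages. hes5.1.S in the nicd libraries was at 390.1 and 263 CPM at stage 16, at 247 and 31.3 CPM at stage 25 and at 10.3 and 1.67 CPM at stage 32. Uninjected libraries gave 7.18 and 4.05 CPM, then 0.139 and 0.0456 CPM, then 0, so it stayed above them at each stage. Of the 32 copies 14 were higher and 4 lower at stage 16, 22 and 1 at stage 25, and 7 and 1 at stage 32. Of the 78 replication and cell cycle copies 6, 38 and 0 were higher. gmnn.L at stage 32 read 30.4 and 9.61 against 34.1 and 14.6 CPM, and its difference from stage 25 was called in the paired fit with a replicate block within each stage (-4.41 ± 0.59, adjusted p = 0.0018) and not without a block (adjusted p = 0.24). The gene called between stages 32 and 25 was pck1.L, a gluconeogenic enzyme, which rose at stage 25 from 7.70 and 6.71 to 62.8 and 31.5 CPM and fell at stage 32 from 244 and 129 to 13.5 and 31.96 CPM (difference -5.80 ± 0.71, adjusted p = 0.00154).

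The counts of calls per stage are a description, since the tests of the difference between stages called at most 1 copy of any list between stages 25 and 16 and none between stages 32 and 25. Dyneins fell in 25, 26 and 23 of 31 copies at stages 16, 25 and 32, other axoneme genes in 58, 57 and 55 of 60, V-ATPase subunits in 20, 22 and 21 of 33, and ionocyte regulators in 9, 8 and 7 of 12. Regulators of the multiciliated cell fell in 15, 8 and 4 of 27, and centriole genes in 17, 11 and 5 of 25. itln1.L, the goblet cell lectin, was at 1230 and 1086 against 16.2 and 73.8 CPM at stage 16 (-4.78 ± 0.67, adjusted p = 2.95e-05) and at 10405 and 6709 against 3529 and 3293 CPM at stage 32, where it was not called (-1.35 ± 0.58, adjusted p = 0.225). Its difference between stages 25 and 16 was not called (2.17 ± 0.82, adjusted p = 0.437).

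The nicd libraries were last set against the 2 stage 25 libraries injected with suh-dbm and dnmcidas, at 100 ng/ul each, which the submitters describe as loss of Notch together with a dominant-negative multicilin. Both treatments are compared with the same uninjected libraries, so the test used here is the direct one between them. It called 1494 genes higher (4.72%) and 1212 lower (3.83%) with nicd. Against the uninjected libraries 423 genes were higher (1.34%) and 1347 lower (4.26%) with suh-dbm and dnmcidas. The mcidas.S and rbpj.S transcripts of that group, at 946 and 545 CPM and at 80.2 and 372 CPM, hold injected mRNA and are not read as results. The counts of genes and the list medians of that group still include them.

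Cilium genes were low under both treatments. dnah9.S was at 0 and 0.167 CPM with suh-dbm and dnmcidas, and foxj1.S at 0.33 and 0, next to the nicd values given above, and the direct differences were not called (2.59 ± 1.37, adjusted p = 0.281, and 2.71 ± 1.17, adjusted p = 0.164). Of the 31 dynein copies 26 fell with nicd and 27 with suh-dbm and dnmcidas, and none was called between them. Of the other 60 axoneme copies 2 were higher and 3 lower with nicd in the direct test. ccdc78.S was lower with nicd than at 3.45 and 1.59 CPM in the other group (-3.94, adjusted p = 0.00145), and foxj1.L was higher (4.22, adjusted p = 0.0431).

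Ionocyte genes separated the treatments. foxi1.L was at 408 and 445 CPM with suh-dbm and dnmcidas, above the 80.8 and 119 CPM of the uninjected libraries and far above the 0 and 1.20 CPM of nicd (nicd minus the other, -9.18 ± 1.56, adjusted p = 0.000395). atp6v0a4.L was at 618 and 743 CPM (direct difference -9.51, adjusted p = 8.35e-06), and ca2.L at 931 and 1085 CPM (-9.51, adjusted p = 0.000204). The median log2 fold change of the V-ATPase list was -1.49 with nicd and 0.79 with suh-dbm and dnmcidas, where 4 copies rose, and that of the ionocyte regulators was -5.14 and 1.64. In the direct test 22 of 33 V-ATPase copies and 8 of 12 ionocyte regulators were lower with nicd and none higher. For the single copies of foxi1, atp6v0a4 and ca2 the higher level with suh-dbm and dnmcidas than in the uninjected libraries was not itself called.

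**Figure D5:**
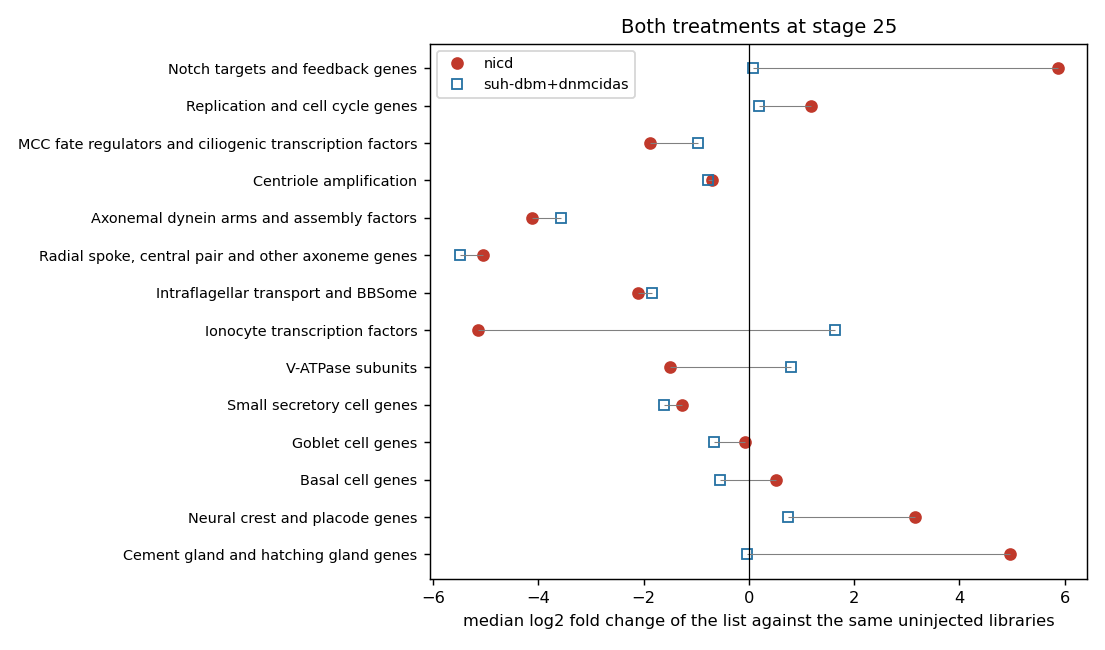
Median log2 fold change of 14 gene lists against the same stage 25 uninjected libraries, for nicd and for suh-dbm with dnmcidas. The list of multiciliated cell regulators includes mcidas, which holds injected mRNA in the suh-dbm and dnmcidas group. Its nicd median of -1.89 is plotted, and is -0.18 with copies at 0 in a group put at their bound. The ionocyte and V-ATPase lists lie on opposite sides of 0 under the treatments, and the axonemal lists lie on the lower side under both.

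Notch targets and replication genes separated the treatments in the other direction. Of 32 Notch target copies 22 were higher with nicd and 3 lower in the direct test. hes5.1.S was among the former, at 0.806 and 0 CPM with suh-dbm and dnmcidas (8.66 ± 1.19, adjusted p = 5.51e-05). lfng.L went the opposite way, at 14.4 and 7.82 CPM there against 0.943 and 0.501 CPM with nicd (-3.68, adjusted p = 2.15e-05). Of 78 replication and cell cycle copies 26 were higher with nicd and none lower, gmnn.L among them (5.06 ± 0.86, adjusted p = 0.000387). foxa1.L of the small secretory cells, not called against the uninjected libraries, was higher with nicd than with suh-dbm and dnmcidas, where it was at 2.20 and 2.09 CPM (2.93 ± 0.82, adjusted p = 0.024). Without the nicd library of experiment 1 the direct test called 914 genes, and without the suh-dbm and dnmcidas library of experiment 1 or experiment 2 it called 1005 and 1667.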

How the data were processed

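RNA was read from poly-A selected, non-stranded libraries on paired-end runs that held all samples, and the authors deposited raw read counts per gene for each library. FastQC 0.11.5, STAR 2.6.0b-1, featureCounts 1.6.3 and DESeq2 1.22.1 are named in the submitters' processing notes. The genome build, the annotation and the handling of reads that match both copies (L and S) of a gene are not given in the sources used here, so values of near-identical copies are uncertain. Without strand, reads of overlapping and antisense genes cannot be told apart. The deposited count headers name 2 mapping sets, which at stage 25 coincide with the experiments and cannot be told apart from them.

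Of 51017 gene IDs, 48349 had a symbol, and joined symbols are written by their first part. Of these IDs 1311 are RNA entries with no symbol, which hold at most 0.00153% of a library's counts and were kept. The 40 libraries were fitted together in edgeR 4.0.16 (R 4.3.3, limma 3.58.1) with a term for each group, TMM scaling, edgeR's expression filter (minimum count 10, total 15) and the quasi-likelihood test, with Benjamini-Hochberg adjustment over all genes and a threshold of 0.05, on 20 residual degrees of freedom. This left 31647 genes besides notch1.S. CPM were computed on each library's total count. An experiment stands for 1 female and fertilization, and deviations of same-numbered libraries from their group means correlated at 0.50 between the stage 25 groups (0.62 at stage 16 and 0.53 at stage 32). The experiments are therefore pairs, and fits with a replicate block stand beside the results they move. Alternatives were other scaling and filters, DESeq2 1.42.0, the block, only the libraries compared, summed L and S copies and each library left out. Intervals on ratios are exact (95%) and cover counting error only. The floor is 3 counts over a group.

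The members and gene lists were chosen with earlier results of these data known. Genes were named by a rule: up to 3 called copies in each direction and the 2 most abundant called copies of a list, a set of regulators, and the top called genes over all with a mean log2 CPM of at least 3. Other list members were named after their values were seen. List counts keep copies caught by the name alone (fgfr1op.L, col4a3bp.S, cdkn2aipnl.S and others). A gene counted in the lists is not reported here by name. The fit without a block was also run on counts simulated from its own fitted means and spread, with no effect of the experiment. That setting cannot show how the pairing of the experiments bears on the calls.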

Additional observations from a re-analysis of the deposited data

Results flagged for a closer look

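The effect of nicd was tested for a difference between stages, and 56 genes differed between stages 25 and 16 and 1 between stages 32 and 25, by edgeR's quasi-likelihood test of the interaction. Those named by the rule, up to 5 in each direction, follow with their log2 difference of effects (stage 25 minus stage 16). The centriole genes cep152.L (2.77) and cenpj.L (2.31) were lower with nicd at stage 16 and not at stage 25, and so was cdk7.L (2.43), a kinase of the cell cycle and of transcription, at 117 and 133 against 27.5 and 29.5 CPM at stage 16 and 18.0 and 15.8 against 25.3 and 14.4 CPM at stage 25. ypel1.L (3.39) read 32.9 and 23.4 against 1.31 and 2.92 CPM at stage 16, and 20.3 and 22.4 against 10.05 and 21.7 CPM at stage 25.

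The cilium genes ttc26.L (-2.83) and ak7.S (-3.43) fell further at stage 25, as did stmnd1.L (-3.82), a stathmin domain gene, which read 63.5 and 112 against 33.4 and 61.3 CPM at stage 16 and 141 and 202 against 5.54 and 7.14 CPM at stage 25. The fibronectin gene fn1.S (3.60) rose at stage 25. rfk.S (-4.49), riboflavin kinase, was at 4.23 and 2.81 against 54.9 and 52.5 CPM at stage 16, and at 11.2 and 10.52 against 9.19 and 4.76 CPM at stage 25. hectd4.L (-3.10), a ubiquitin ligase, was at 4.71 and 6.64 against 18.6 and 11.2 CPM, then at 28.3 and 22.6 against 7.10 and 8.31 CPM. Between stages 32 and 25 the gene was pck1.L (-5.80).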

How the results depend on the processing

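Of 177 named copies tested in nicd against uninjected explants 154 were called, and 80 of these were called under every alternative run. Fitted on the libraries compared alone, that contrast called 1033 genes higher, and with the replicate block there 6843 (2830 higher, 4013 lower). With the block within each stage it called 8664 (4272 and 4392), and without single libraries 1546 to 3697 (415 to 1590 higher, 1131 to 2107 lower), lowest without the nicd library of experiment 1. With 1 library left in an arm, that library is assumed to vary like the other groups. Summing L and S copies turned fras1.S from -2.39 to 0.75 and hmox1.S from -3.25 to 0.94 on the log2 scale.

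Stage 25 against 16 gave 186 calls with every gene of at least 1 count (93 each way), 123 with the replicate block (49 higher, 74 lower), 391 in DESeq2 (150, 241), 1 on its own libraries (1, 0), 6 on these with the block (1, 5), 887 with the block within each stage (453, 434), and 4 to 150 without single libraries (0 to 102, 3 to 56), where omitting either stage 25 uninjected library left 6 and 4. Stage 32 against 25 gave 26 (8, 18), 6 (0, 6), 80 (37, 43), 0, 0, 185 (87, 98) and 0 to 35 (0 to 19, 0 to 16) in the same order, with 1664 genes at an unadjusted p under 0.05 in edgeR.

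Nicd against suh-dbm with dnmcidas gave 1844 lower in DESeq2, 1301 on its own libraries (756, 545), 5101 there with the replicate block (2658, 2443), 7121 with the block within each stage (3787, 3334) and 914 to 2219 without single libraries (355 to 1189, 400 to 1030). The causes were not tested. With 2 libraries a group, a gene not called may still differ, and below a few counts in a library no difference was detectable.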
